A study of Mus musculus with 116 samples.

Results

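Junction reads at 3 windows on mouse chromosomes 8, 14 and 4 were examined in the libraries of a zinc-finger nuclease (ZFN) break. A window was 500 bp to either side of chr8 position 126056085, chr14 position 74846194 or chr4 position 137300025 (mm10), and the windows were selected on their high numbers of junctions in these same libraries, so the numbers are given below as a description with no test. The windows held 431 junction reads, 244 on chr8, 108 on chr14 and 79 on chr4. This was 0.342% of the 125900 junction reads of the 18 ZFN libraries and 8.14% of the 5294 that lay on a chromosome other than 6, where the break is. The windows had been proposed as recurrent translocation sites, but the reads go against that name. Within the stretch that was aligned to the windows the reads consisted almost wholly of G, and they are called G-run windows here.

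The cells were mouse pro-B cells, an early stage of the B lineage, that the v-Abl oncogene had immortalised. All of them carried an Emu-Bcl2 transgene, which keeps arrested B-lineage cells alive, and all were arrested in G1 by 96 h of STI-571 at 3 µM, which inhibits the v-Abl kinase, and doxycycline at 2 µg/ml induced a ZFN against the Eb locus. There were 6 groups of 3 libraries: Lig4-/- clone D, the same clone with Lig4 added back (Lig4-/- +Lig4), Lig4-/-Ku70-/- clones D1 and D2, and each of these with Ku70 added back (+Ku70). Each genotype therefore rests on 1 or 2 clones, and WT cells with this nuclease were not analysed here. Nothing in the labels says that replicates were separate cultures, so p-values measure the spread between libraries only. Every library was normalised by the authors to 600000 raw reads and held from 161 to 17254 junction reads.

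A double-strand break in G1 is repaired mainly by classical non-homologous end joining, in which the Ku70/Ku80 heterodimer binds and protects the ends and DNA ligase IV seals them. Without these proteins ends can still be joined by alternative end joining, often at short stretches of homology shared by both ends. A translocation arises when an end of one break joins an end of another, and recurrent translocation partners are therefore usually places that are broken often, such as off-target cuts of the nuclease. A second cut of a nuclease typically leaves prey on both strands, since either of its ends can be joined to the bait.

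The libraries read from a primer beside the Eb break (the bait) into whatever sequence the end had joined (the prey). The 120 bases around the break are shown first as the reference for what the bait reads, because they show where the reads below stop following Eb. They are the plus strand of chr6:41554917-41555036, taken as the most frequent base at each position of the ZFN libraries' own reads, with at least 99.0% of reads in agreement at every position. Capitals mark the bases past the most frequent bait end, 41554976.
Eb: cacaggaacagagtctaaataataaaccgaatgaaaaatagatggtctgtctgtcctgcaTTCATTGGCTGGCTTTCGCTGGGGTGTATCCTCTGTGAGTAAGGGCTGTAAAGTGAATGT

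One whole read of 151 bases is shown for each window, because the letters themselves carry the finding. Each is the first by read name at the window's most frequent position in replicate 1 of Lig4-/-Ku70-/- clone D1, and capitals mark the prey, that is, the bases that the deposited list aligns to the window.
chr8: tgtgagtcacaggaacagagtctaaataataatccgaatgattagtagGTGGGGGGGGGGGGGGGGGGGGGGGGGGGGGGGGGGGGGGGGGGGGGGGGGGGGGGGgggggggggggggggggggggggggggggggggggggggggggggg
chr14: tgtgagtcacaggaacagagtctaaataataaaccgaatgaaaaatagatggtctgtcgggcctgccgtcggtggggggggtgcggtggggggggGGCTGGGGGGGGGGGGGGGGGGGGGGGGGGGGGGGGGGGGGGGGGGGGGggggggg
chr4: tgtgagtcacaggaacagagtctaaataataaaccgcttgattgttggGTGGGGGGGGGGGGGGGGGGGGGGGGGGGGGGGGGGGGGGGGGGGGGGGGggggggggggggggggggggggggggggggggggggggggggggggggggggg
Each read begins with the bait and ends in G to its last base. In the chr8 read the bait alignment ended at base 41 and the prey began at base 49, after 7 unaligned bases. In the chr14 read the bait was followed to base 66, and 29 unaligned bases rich in G came before the prey. In the chr4 read the bait ended at base 36 and 12 unaligned bases followed.

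The aligned prey was 98.2% G at the median of the chr8 window (range 92.1 to 100%, 244 reads), 95.9% at chr14 (84.3 to 100%, 108 reads) and 96.4% at chr4 (79.2 to 100%, 79 reads). In 427 of the 431 reads it was at least 90% G. The longest unbroken run of G in the prey had a median of 55 bases at chr8, 45 at chr14 and 48 at chr4. A run of at least 20 G, called a G-run below, was present in all 244 chr8 reads, 107 of 108 chr14 reads and 77 of 79 chr4 reads. That length was set after the data were seen, and with a length of 15 the count rose from 428 to 430 reads. From the first prey base to the end of the read, which runs past the aligned part, 89.0 to 100% of bases were G. From read base 87 to the last, base 151, at least 98.4% of the 431 reads had a G at every base. At the same bases, 28.2 to 41.2% of the 1856 reads of 151 bases whose prey lay within 100 kb of Eb had a G. All 431 reads were of 151 bases and had no value in the length column of the lists, against 1.66% of the 113336 junction reads within 100 kb of Eb.

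**Figure D1:**
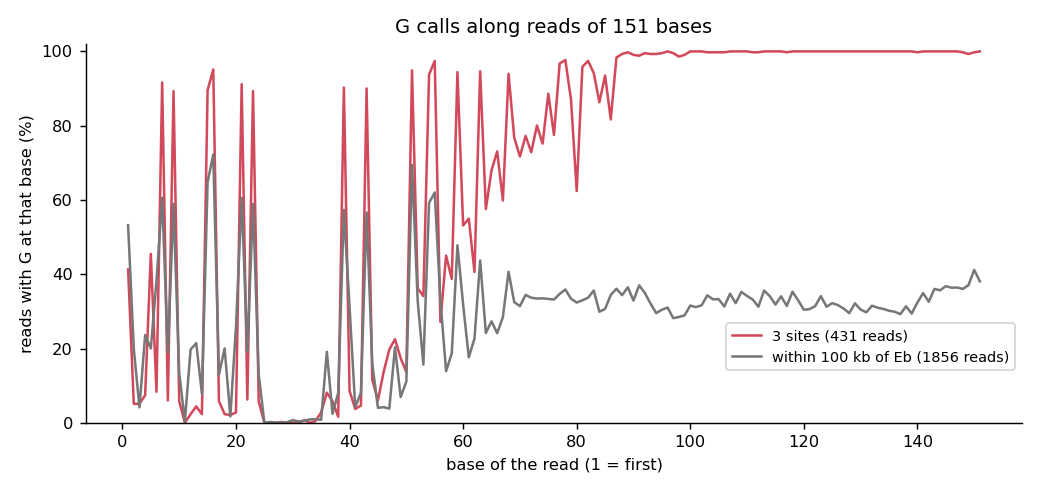
Percent of reads with a G at each base of the read, for the 431 reads at the 3 windows (red) and for the 1856 reads of 151 bases within 100 kb of the Eb break (grey). The peaks before base 60 are the G bases of the bait, which both classes share, and from base 87 on the reads at the windows are at 98.4% or more.

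The window on chr8 lies between genes in the RefSeq annotation of GRCm38.p6, whose coordinates are those of mm10. Its centre is 25400 bp past the end of Kcnk1 (chr8:125993655-126030685), a potassium channel subunit gene, and 16835 bp before the lncRNA gene Gm46072 (chr8:126072920-126120316). The window on chr14 lies inside the gene body of Lrch1 (chr14:74754673-74948007), which encodes a protein with leucine-rich repeats and a calponin homology domain. Exons and introns were not annotated here. The window on chr4 lies 524 bp past the higher end of Wnt4 (chr4:137277635-137299501), a secreted Wnt ligand gene, and 19671 bp before Cdc42 (chr4:137319696-137357759). The Eb break lies in the T cell receptor beta locus Tcrb (chr6:40891296-41558371), 6795 bp past the constant region gene Trbc2 and 2717 bp before the variable segment Trbv31.

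Each window had prey on 1 strand only. All 244 chr8 reads and all 108 chr14 reads were on the minus strand, and all 79 chr4 reads on the plus strand.

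Prey starts filled very short stretches. On chr8 they ran from 126056081 to 126056091 at 8 positions, with 142 of 244 reads (58.2%) at 126056085 and 81 at 126056083. On chr14 they ran from 74846189 to 74846198 at 9 positions, with 35 reads at 74846194 and 31 at 74846190. On chr4 they ran from 137300011 to 137300036 at 10 positions, with 21 reads at 137300025 and 19 at 137300023. The farthest member lay 14 bp from its window's centre, and no junction read of any ZFN library lay between 500 and 5000 bp from a centre, so the choice of 500 bp decided no member.

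The other end of the prey alignment was fixed. It lay at 126056029 in 243 of 244 chr8 reads, at 74846146 in all 108 chr14 reads and at 137300074 in all 79 chr4 reads. The aligned prey measured 57 bases at the median of chr8 (52 to 63), 49 at chr14 (44 to 53) and 50 at chr4 (39 to 64), although the run of G in the reads went on beyond it to the end of the read. All reads of a window were thus aligned to 1 tract of about the same bases, chr8:126056029-126056091, chr14:74846146-74846198 and chr4:137300011-137300074, and differed by where in the tract the alignment began. The reference letters of these tracts were not used here.

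**Figure D2:**
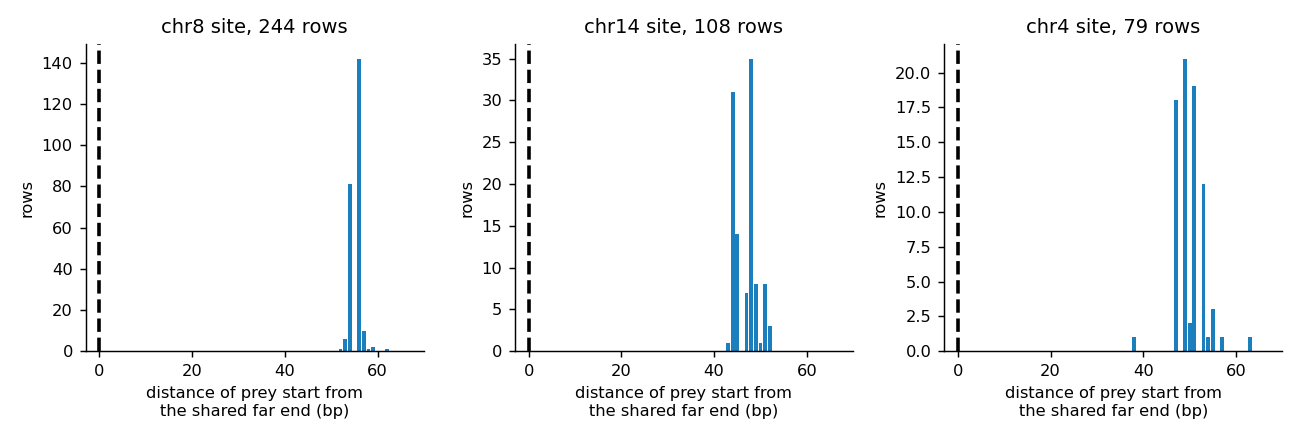
Number of reads (vertical axis) by distance in bp from the prey start to the far end of the prey alignment that the reads of the window share (dashed line at 0), for the chr8, chr14 and chr4 windows. The starts cluster within 10, 9 and 25 bp, and no read starts close to the far end.

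In Lig4-/- clone D and in Lig4-/- +Lig4 none of the 6 libraries had a junction read at the windows. With 600000 raw reads a count of 0 allows up to 0.5 per 100000 raw reads in each library. Junction reads were not lacking in the +Lig4 libraries, which held 8865 to 9709, so that a count of 0 allows a share of at most 0.0338% there, while in the Lig4-/- libraries, with 339 to 665, it allows up to 0.885%. These limits and the intervals below cover counting error only, since the reads carry no molecular identifiers and copies of 1 molecule cannot be told from separate ones.

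In Lig4-/-Ku70-/- clone D1, replicates 1 to 3 had 10, 19 and 26 reads at the windows, or 1.67, 3.17 and 4.33 per 100000 raw reads (3.06 ± 1.34, SD, n = 3). In D1 +Ku70 they had 9, 20 and 10, or 1.50, 3.33 and 1.67 per 100000 (2.17 ± 1.01, n = 3). The groups overlapped. Over the same libraries junction reads within 100 kb of Eb numbered 2612 ± 47.5 per 100000 without Ku70 and 123 ± 28.2 with it, a mean 21.3 times higher without Ku70 than with it. For the windows that ratio was 1.41.

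In Lig4-/-Ku70-/- clone D2, replicates 1 to 3 had 148, 13 and 10 reads at the windows, or 24.7, 2.17 and 1.67 per 100000 raw reads (9.50 ± 13.1, n = 3). In D2 +Ku70 they had 142, 12 and 12, or 23.7, 2.00 and 2.00 per 100000 (9.22 ± 12.5, n = 3). Replicate 1 was high in both arms, by more than 10 times the count of any other D2 library, and the groups overlapped. Without both replicate 1 libraries the means were 1.92 and 2.00 per 100000. Junction reads within 100 kb of Eb were 41.4 times as many without Ku70 as with it in D2 (215.5 times without both replicate 1 libraries), and reads at the windows 1.03 times as many (0.958 times without them).

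The share of a library that the windows took therefore differed between the arms more than their number. It was 0.0580 to 0.151% of junction reads in D1 and 0.746 to 2.02% in D1 +Ku70. In D2 it was 0.862% in replicate 1 (exact 95% interval 0.729 to 1.01%), 0.0800% and 0.162%. In D2 +Ku70 it was 6.45% (5.46 to 7.56%), 6.12% (3.20 to 10.4%) and 7.45% (3.91 to 12.7%).

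The numbers went with the sequencing run, which the read names give. All 6 clone D libraries came from run 1 and had 0 reads at the windows. All 6 D1 and D1 +Ku70 libraries came from run 2 and had 9 to 26. The D2 and D2 +Ku70 replicate 1 libraries came from run 3 and had 148 and 142, and the other 4 D2 libraries came from run 4 and had 10 to 13. Both arms of a Ku70 add-back were thus in the same run. Clone D shared no run with D1 or D2, and whether the absence of such reads from clone D goes with the run or with the genotype cannot be told apart.

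**Figure D3:**
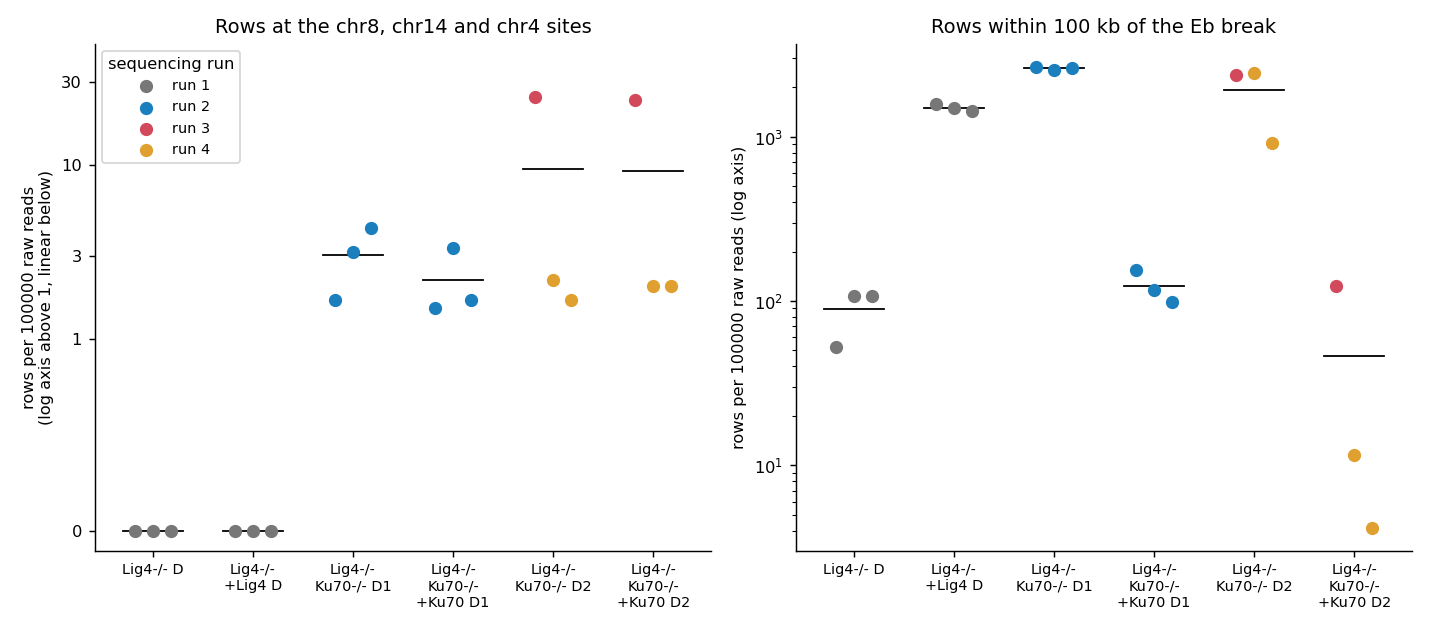
Junction reads (rows of the deposited lists) per 100000 raw reads in each ZFN library, at the 3 windows (left, log axis above 1 and linear below) and within 100 kb of the Eb break (right, log axis); points are libraries coloured by sequencing run and lines are group means. At the windows both arms of D1 lie between 1.50 and 4.33 and both D2 replicate 1 libraries near 24, while near the break the +Ku70 libraries lie far below those without Ku70.

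The chr8 window was the most frequent in most libraries. In D2 replicate 1 it had 86 reads against 33 at chr14 and 29 at chr4, and in D2 +Ku70 replicate 1 it had 86 against 40 and 16. In D1 the 3 windows had 24, 15 and 16 reads over the 3 libraries, and in D1 +Ku70 19, 11 and 9. All 12 Lig4-/-Ku70-/- libraries, with or without Ku70, had reads at all 3 windows. Of the 431 reads 390 (90.5%) were distinct within their library in prey position, strand, bait end and gap between bait and prey, and 1 pair of reads had the same letters throughout. No read name occurred in more than 1 library.

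Joint structure was read from where the bait and prey alignments ended on the read. At the windows 410 of 431 reads (95.1%) had unaligned bases between bait and prey, which such lists count as insertions, with a median gap of 14 bases at chr8, 9 at chr14 and 10.5 at chr4 and a longest of 29. Only 12 reads (2.78%) had bait and prey overlapping by at least 2 bases, the measure of microhomology, and none overlapped by 8 or more. Of the 5226 unaligned bases 73.2% were G. Set against Eb continued past the bait end, base by base without a shift, 40.6% of the unaligned bases were the letter Eb has there, and of the 3104 that differed 86.4% were G. In reads with unaligned bases whose prey lay within 100 kb of Eb, 30.1% were the letter of Eb, and 41.1% of those that differed were G. The matches include each G that falls on a G of Eb, which a run of G gives without following the bait. Since 73.2% of the unaligned bases were G at the windows and 30.35% near Eb, the 2 shares of matches are not directly comparable.

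The bait reached the break in few of these reads. The bait end lay 7 bases short of 41554976 at the median of chr8, 11 at chr14 and 9 at chr4, and up to 35 bases short, at 34, 24 and 24 different positions. It lay at or past the break in 34 of 244, 6 of 108 and 9 of 79 reads. For comparison, 23.0% of the junction reads within 100 kb of Eb had a bait end at or past the break and their median loss was 7 bases.

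Adding Ku70 back was compared for these structure measures, which did not enter the choice of the windows, over libraries with at least 10 reads at the windows. Over clones D1 and D2 the share of reads with an overlap of at least 2 bases averaged 4.57% without Ku70 (n = 6) and 4.38% with it (n = 5), or -0.19 points (two-sided exact permutation within clones, p = 0.86, adjusted 0.86 over 8 tests). The share with unaligned bases was 94.1% and 92.9%, which is -1.22 points apart (exact permutation p = 0.79, adjusted 0.86). A bait end at or past the break was counted as intact, so the measure also takes in reads that follow Eb beyond the break. The share with an intact bait end was 5.56% and 7.82%, which is 2.26 points apart (exact permutation p = 0.7, adjusted 0.86). None of these differences exceeded the spread between libraries, and with so few reads a library the smallest p that the first and the third comparison allowed was 0.04 and 0.06. Clones D1 and D2 were compared with 3 libraries each, where no p below 0.1 is possible. They shared no sequencing run, so clone and run cannot be told apart in this comparison. The overlap share was 0% in all 3 D1 libraries and 9.14% ± 6.72 (n = 3) in D2 (exact permutation p = 0.1, adjusted 0.267), and the share with unaligned bases was 98.2% ± 3.04 and 89.96% ± 5.33 (exact permutation p = 0.2, adjusted 0.32). The 0% rests on 10 to 26 reads a library. The D2 mean weighs its libraries equally, and they had 2.03% of 148 reads, 15.4% of 13 and 10.0% of 10.

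The windows were then compared with the other junction reads on chromosomes other than 6, within each of the 6 Lig4-/-Ku70-/- libraries. Reads with unaligned bases made up 94.1% at the windows and 52.7% elsewhere, a difference of 41.4 points in the same direction in all 6 libraries (exact sign-flip permutation p = 0.0312, the smallest possible for 6, adjusted 0.125). Overlaps of at least 2 bases made up 4.57% and 14.5%, a difference of -9.98 points (exact sign-flip permutation p = 0.0312, adjusted 0.125). Both fail the correction. For intact bait ends the shares were 5.56% and 10.7% (exact sign-flip permutation p = 0.156, adjusted 0.312). The comparison turned on which other reads were used. Against the G-run reads elsewhere the differences were 4.13 points for unaligned bases (exact sign-flip permutation p = 0.125) and 1.11 points for overlaps (exact sign-flip permutation p = 0.75). Among reads elsewhere without a G-run in D1, only 12.5% ± 2.19 (n = 3) had unaligned bases and 26.6% ± 2.28 overlapped by at least 2 bases.

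G-runs were common outside the windows too. Of the 4863 other junction reads on chromosomes other than 6, 3458 (71.1%) had a G-run in the prey, while none of the 113336 within 100 kb of Eb had one, and 2.60% of those farther away on chromosome 6 did. All 3458 were reads of 151 bases. Per 100000 raw reads, G-run reads on chromosomes other than 6 numbered 28.0 ± 3.76 in D1 and 26.8 ± 3.21 in D1 +Ku70 (n = 3 each). In D2 they numbered 199, 19.0 and 15.2 in replicates 1 to 3, and in D2 +Ku70 214, 17.3 and 17.5. Clone D libraries had 0 to 6 such reads each. The windows took 4.73 to 13.7% of the G-run reads in the 12 libraries of D1 and D2, both arms included, a range of about 3 times. The counts at the windows ranged from 9 to 148. Of the 431 window reads 428 are themselves in the G-run total, so a steadier share is in part built in. Junction reads on other chromosomes without a G-run behaved otherwise: they were 24.6 ± 1.34 per 100000 in D1 and 8.78 ± 0.839 in D1 +Ku70, and the ratio of the means was 2.80, against 1.04 for G-run reads. They still included reads rich in G. Of the 1405 outside the windows, 240 (17.1%) had prey of at least 80% G and 229 (16.3%) ended in at least 20 G.

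**Figure D4:**
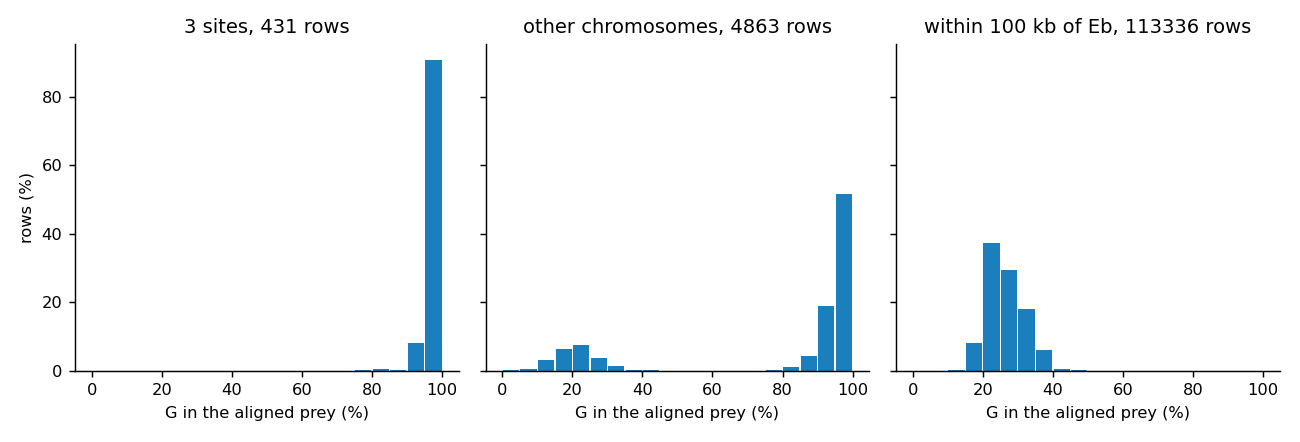
Share of junction reads (vertical axis, percent) by the percent of G in the aligned prey, for the 3 windows, for other junction reads on chromosomes other than 6, and for those within 100 kb of the Eb break, over the 18 ZFN libraries. The windows sit at the right edge, the reads within 100 kb of Eb lie mostly between 15 and 40, and the other chromosomes show both groups.

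The 3 windows ranked 1 to 3 when chromosomes other than 6 were divided into bins of 1000 bp, and they headed a list of the same kind of place. There were 45 bins with at least 20 junction reads, the next after the windows having 66. In all 45 most reads had a G-run, the lowest share being 66.7%, and in all 45 the prey lay on 1 strand. With G-run reads left out, no bin held 20 reads and the fullest held 17.

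The Cas9 libraries of the series, in which no ZFN was used and the bait lay at c-Myc on chromosome 15, were searched at the same windows. Of the 54 libraries, 45 were sequenced on a MiSeq and 9 on a NextSeq, per the labels, and all 18 ZFN libraries were sequenced on a NextSeq. On a NextSeq a cycle without signal is called as G, which is not so on a MiSeq, as background. The 45 MiSeq libraries, with 652395 junction reads, had 0 reads at the windows, which over all 45 allows up to 0.0231 per 100000 raw reads. The 9 NextSeq libraries, with 239460, had 18 reads there in 8 libraries, from WT, Lig4-/- and Ku70-/- cells. Of these 18, 12 had a G-run, the same strand as the ZFN reads and a start within the same stretch. The other 6 were on chr4 in 2 Ku70-/- libraries, on the opposite strand and rich in C. Their aligned prey, of 36 to 49 bases, was 76.3 to 88.9% C and at most 2.63% G, with a longest run of 5 to 19 C. It began at 137300067 to 137300074 and lay inside the chr4 tract given above, so these reads carry a C-rich strand of that tract and not a run of G calls.

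One of the 12 Cas9 reads with a G-run is shown because it joins the same letters to another bait. It is from WT clone B replicate 1, with the prey in capitals, and its prey alignment covers chr8:126056029-126056085, the same bases as the ZFN read above.
chr8, c-Myc bait: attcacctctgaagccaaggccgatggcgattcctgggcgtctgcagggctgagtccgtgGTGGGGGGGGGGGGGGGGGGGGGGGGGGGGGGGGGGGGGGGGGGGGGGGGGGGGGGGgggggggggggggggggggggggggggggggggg
Reads at the windows were thus also listed without the ZFN and with a break on another chromosome. They were 18 reads, 12 of them with a G-run, and all came from NextSeq libraries. What produced them was not tested.

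G-run reads anywhere in the genome were counted by instrument. The 45 MiSeq libraries held 1 in all, in a Lig4-/-Ku70-/- library, and the 9 NextSeq Cas9 libraries held 25 to 51 each. WT clone B, with 28028 to 55809 junction reads a library, had 35, 30 and 33 G-run reads, and Lig4-/- clone B1, with 128 to 155, had 25, 34 and 33. Ku70-/- clone B1, with 47748, 25950 and 51862 junction reads in replicates 1 to 3, had 43, 29 and 51, most in the library with the most junction reads and fewest in that with the fewest. Instrument and clone coincide in the Cas9 libraries, so they cannot be told apart. The NextSeq libraries of clone D, which alone made up run 1 of the ZFN set, had 0 to 6 G-run reads each. Whether the G calls are cycles without signal was not tested, as base qualities are not in the lists used here.

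**Figure D5:**
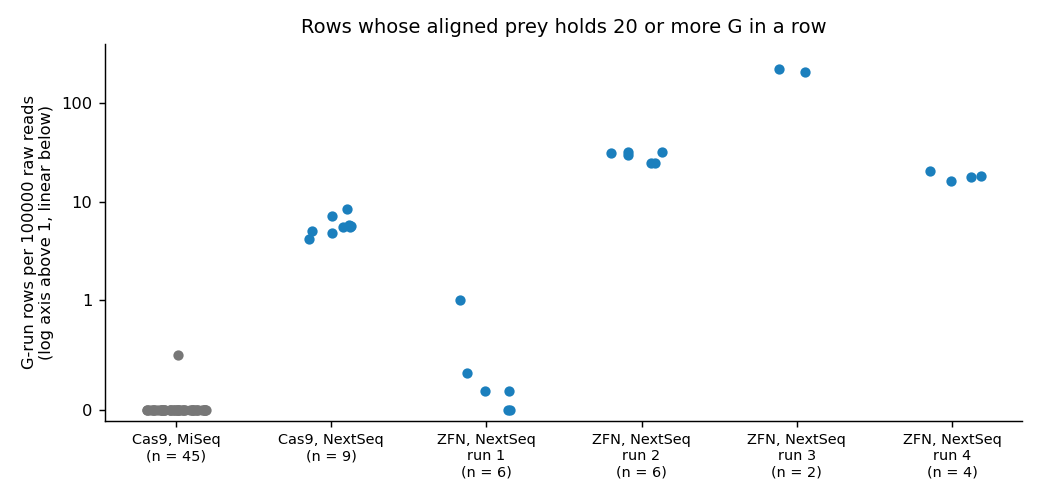
Junction reads (rows) with at least 20 G in a row in the aligned prey, anywhere in the genome, per 100000 raw reads (log axis above 1, linear below); each point is a library, grouped by nuclease, instrument and, for the ZFN libraries, sequencing run. The MiSeq libraries are at 0 except for 1, and ZFN runs 2, 3 and 4 lie at separate levels, with run 3 above 200.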

How the data were processed

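Junction lists of 18 ZFN and 54 Cas9 libraries were used, with 1 line per read. Per the labels' protocols the authors made them with the JoinT-seq pipeline after taking a stated number of raw reads, and libraries omitted enzyme blocking; the submitters' processing notes name Bowtie2 and mm10. The deposited values are alignment positions on genome and read (no other unit is used) with the read sequence. The windows and measures were chosen with earlier results of these data known. Overlap or gap is the bait end minus the prey start on the read plus 1; the break is the most frequent bait end of Lig4-/- +Lig4. The rule for named items was the 3 windows, Eb and the overlapping or flanking genes. Of 16 planned tests, 8 could be run (two-sided exact permutation or sign-flip, Benjamini-Hochberg over 8). Clone D had no reads to compare, and only 1 double-null library had 10 reads at each of a pair of windows. The test code was tested on simulated data. Tools were pandas 2.3.3, numpy 2.4.6 and scipy 1.17.1.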

Additional observations from a re-analysis of the deposited data

How the results depend on the processing

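The numbers per 100000 raw reads moved by less than 1 SD under the distinct-junction count and the 100 and 20 bp windows. Leaving out 1 library gave 2.42 to 3.75 in D1, 1.58 to 2.50 in D1 +Ku70, 1.92 to 13.4 in D2 and 2.00 to 12.8 in D2 +Ku70, the lowest D2 values being those without replicate 1. The Ku70 differences changed sign under some settings: for the overlap share 0.19 points with a 1 bp minimum, for unaligned bases 0.032 with 5 reads a library, and for the intact bait end -0.11 with 1 lost base allowed. With 20 reads a library, which left 2 libraries an arm, they were 2.54, -6.90 and 7.03 points. Leaving out 1 library gave -1.97 to 1.37, -4.97 to 2.53 and -0.56 to 4.40 points. With the replicate block (5 pairs, exact sign-flip permutation) they were -0.73, 0.038 and 2.71 points, the second with its sign changed, and D1 against D2 gave 9.14 and -8.28; no call changed. Same-numbered libraries correlated at 0.31 in D1 and 0.996 in D2, over 3 pairs each, and the labels do not say what a number shares.

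Windows against elsewhere kept its direction for unaligned bases, and for overlaps except against G-run reads elsewhere, but was past 0.05 only with all 6 libraries, since 5 allow no p below 0.0625. Leaving out 1 library gave -11.1 to -8.64 and 39.2 to 45.6 points, -3.59 to -6.66 for intact bait ends. Without the run of D2 replicate 1 it gave -11.1 and 45.6, and with 20 reads a library (2 libraries) -9.00 and 32.8. Against G-run reads elsewhere, chosen after seeing the data, it gave 1.11, 4.13 and, for intact bait ends, 0.92 points, and against reads elsewhere without a G-run -21.5, 81.8 and -10.4. D1 against D2 could not be fitted with 20 reads a library, since 1 library a clone remained; it ranged from 6.01 to 12.7 and -10.9 to -5.61 points with 1 library left out. Counts of 10 to 26 reads in most libraries limit all shares.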

Other observations

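The reads with a G-run bear on values taken over whole libraries, which is described here from a comparison chosen after the data were seen. With all junction reads, the share with at least 2 bases of overlap was 26.4% ± 0.847 in D1 and 34.8% ± 5.86 in D1 +Ku70, and 23.3% ± 1.56 in D2 and 19.1% ± 0.925 in D2 +Ku70 (n = 3 each). The Ku70 effects of the clones, 8.31 and -4.20 points, thus had opposite signs (exact permutation p = 0.1 each, the smallest for 3 against 3). They differed by 12.5 points (exact permutation p = 0.005, the smallest possible with Ku70 labels permuted within each clone). Such a p is set against no Ku70 effect in either clone and does not test whether the effects differ. D1 and D2 also shared no sequencing run. With G-run reads left out the shares were 26.7% ± 0.819 and 41.3% ± 6.23 in D1 and 23.9% ± 1.05 and 42.5% ± 3.98 in D2. Few reads were left in D2 +Ku70 replicates 2 and 3, where 108 of 196 and 110 of 161 junction reads had a G-run. Both clones then had a higher share with Ku70, by 14.6 and 18.6 points, in all 3 libraries against all 3 (exact permutation p = 0.1 each, the smallest for 3 against 3). The effects differed by -3.95 points (exact permutation p = 0.71, labels again permuted within each clone). Leaving out reads by a run of 15 G, by 80% G in the prey or by 20 G at the end of the read gave differences of -5.81, -7.72 and -6.80 points (exact permutation p = 0.635, 0.61 and 0.65). None of these p-values tests whether the Ku70 effects of the clones differ, so the differences are given as a description.

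The share of junction reads on chromosomes other than 6 changed in size and kept its direction. It was 1.84% ± 0.101 in D1, 21.5% ± 3.04 in D1 +Ku70, 4.42% ± 3.72 in D2 and 67.7% ± 10.8 in D2 +Ku70 with all reads. Without G-run reads it was 0.871% ± 0.0372, 6.52% ± 1.85, 1.43% ± 0.429 and 24.8% ± 19.6. Over both clones the rise of this share with Ku70 went from 41.4 to 14.5 points (exact permutation p = 0.005 for each, the smallest possible). It was 11.6, 9.61 and 10.7 points with reads left out by a run of 15 G, by 80% G in the prey or by 20 G at the end of the read (exact permutation p = 0.005 for each). The rise was in the share and not in the number. Without G-run reads, junction reads on other chromosomes per 100000 raw reads were fewer with Ku70, by ratios of 2.80 in D1 and 4.22 in D2. Those within 100 kb of Eb, most of the total without Ku70, fell more, by ratios of 21.3 and 41.4.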
